A study of Homo sapiens with 18 samples.

Results

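The proteasome genes described here are 48 human genes, taken by symbol. The alpha and beta subunits are PSMA1 to PSMA7 and PSMB1 to PSMB10. The regulatory particle genes are PSMC1 to PSMC6, PSMD1 to PSMD4, PSMD6 to PSMD8, PSMD11 to PSMD14 and ADRM1. The activators are PSME1 to PSME4, and the assembly factors PSMG1 to PSMG4, POMP, PSMD5, PSMD9 and PSMD10. The transcription factor NFE2L1 completes the list. All 48 were found in each of the 4 deposited tables, among 16532 symbols for H929, 57351 for each MM1S expression table and 20233 for the RNA immunoprecipitation (RIP). All 48 also passed the filter on low values in every comparison, so none drops out of the counts below. By role they were 7 alpha ring genes, 7 constitutive beta ring genes, 3 immunoproteasome genes, 10 genes of the base, 8 of the lid, 4 activators, 8 assembly factors and NFE2L1.

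The proteasome is the protease that degrades ubiquitin-tagged proteins. Its barrel-shaped core is a stack of alpha and beta rings with the active sites inside; the base of the regulatory particle unfolds substrates with its ATPases and the lid removes their ubiquitin. Immune-active cells exchange the catalytic beta subunits for immunoproteasome versions, and NFE2L1 (also called NRF1) is the factor known to raise transcription of most subunit genes when proteasome activity drops. Plasma cells secrete large amounts of immunoglobulin, and proteasome inhibitors such as bortezomib are a mainstay of myeloma treatment.

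The series asked what the splicing factor RBM39 does in multiple myeloma, in the established human myeloma lines H929 and MM1S. H929 had 3 libraries labelled scramble (a non-targeting control hairpin) and 3 labelled shRBM39 (a short hairpin RNA against RBM39), and MM1S had 2 of each. MM1S cells treated with indisulam, a sulfonamide that directs RBM39 protein to degradation, gave 3 libraries against 3 with the solvent DMSO. RIP from MM1S used 1 library pulled down with anti-RBM39 and 1 with IgG as the control. The labels give no dose or time, do not say whether the MM1S numbers are hairpins or replicates, and do not say that replicates were separate cultures, so p-values measure the spread between these libraries, which may be technical.

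RBM39 itself was checked first. In the MM1S knockdown RBM39 was 176 and 205 TPM (a length-scaled share of all transcripts) in the scramble libraries and 64.8 and 52.2 TPM in the shRBM39 libraries, or -1.69 on the log2 scale (SE 0.161, limma adjusted p = 0.0119), although 3 of the 4 fits that left out 1 library called no gene at all. In H929 it went against the labels: 4.56, 4.43 and 4.51 FPKM (fragments scaled by gene length and library size) in the libraries labelled scramble stood below 38.3, 38.6 and 35.6 FPKM in those labelled shRBM39. The H929 labels may be exchanged, which was not tested; every H929 difference would then have the opposite sign. The H929 groups are therefore named only as labelled, and no direction in H929 is read as an effect of less RBM39. With indisulam RBM39 mRNA was 226, 217 and 149 TPM against 189, 178 and 196 TPM, with no call (log2 difference 0.05, limma adjusted p = 0.828), but it was called higher without indisulam replicate 3 (0.24, limma adjusted p = 0.00893) and under quantile normalization (0.40). Indisulam replicate 3 stood apart from the other two: without it 5386 genes were called higher in place of 1137. For members whose call changes without it, both values are given. All 10 plasma cell markers reached 1 FPKM or TPM in every library of H929 and of the MM1S knockdown, and 9 of 10 did so in the indisulam experiment, where CD38 was 0.920 TPM in 1 library. Their sum moved with the groups in all 3 comparisons. In H929 it went from 5165 to 5280.5 FPKM under the scramble label to 8117 to 8245 FPKM under the shRBM39 label. In the MM1S knockdown it was 4786 and 7013 TPM with scramble and 7680.3 and 8861 TPM with shRBM39. With indisulam it went from 7699.8 to 8059 TPM down to 6097 to 7408 TPM. The part of these markers in the results was not tested. Markers of T and NK cells summed to at most 5.67 TPM in MM1S. In H929 they summed to 39.6 to 47.9 FPKM against 15.8 to 18.6 FPKM, nearly all of it from CD3E, and the defining markers CD3D, CD4 and CD8A stayed under 0.1 FPKM.

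The promoters of PSME2, PSMB9, PSMB3 and PSMG1 are shown because they are the called members with the largest indisulam difference whose 250 bases before the RefSeq start (GRCh38.p14) hold the letters TGACNNNGC, the core of the element that NFE2L1 is known to bind with small MAF proteins. They are chr14:24146611-24146860 on the minus strand for PSME2, chr6:32853942-32854191 on the plus strand for PSMB9, chr17:38752491-38752740 on the plus strand for PSMB3 and chr21:39183452-39183701 on the minus strand for PSMG1. Each is written 5′ to 3′ towards the gene, with the match in capitals; the PSMB9 match lies on the opposite strand and reads TGACGAGGC there.
PSME2 promoter: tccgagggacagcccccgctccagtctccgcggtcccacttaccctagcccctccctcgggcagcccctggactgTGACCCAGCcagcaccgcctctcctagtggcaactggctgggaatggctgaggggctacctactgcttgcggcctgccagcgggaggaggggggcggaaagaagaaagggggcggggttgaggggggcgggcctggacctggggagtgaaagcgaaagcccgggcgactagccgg
PSMB9 promoter: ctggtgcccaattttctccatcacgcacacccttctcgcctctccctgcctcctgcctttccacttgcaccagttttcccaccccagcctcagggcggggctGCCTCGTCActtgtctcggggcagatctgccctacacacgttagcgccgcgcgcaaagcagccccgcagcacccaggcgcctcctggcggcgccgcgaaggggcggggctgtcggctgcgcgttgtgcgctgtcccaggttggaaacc
PSMB3 promoter: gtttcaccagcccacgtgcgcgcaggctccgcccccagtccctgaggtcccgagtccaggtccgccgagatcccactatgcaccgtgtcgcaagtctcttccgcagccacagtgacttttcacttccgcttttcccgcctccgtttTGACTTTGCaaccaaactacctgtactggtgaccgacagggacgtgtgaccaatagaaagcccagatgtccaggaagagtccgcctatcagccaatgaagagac
PSMG1 promoter: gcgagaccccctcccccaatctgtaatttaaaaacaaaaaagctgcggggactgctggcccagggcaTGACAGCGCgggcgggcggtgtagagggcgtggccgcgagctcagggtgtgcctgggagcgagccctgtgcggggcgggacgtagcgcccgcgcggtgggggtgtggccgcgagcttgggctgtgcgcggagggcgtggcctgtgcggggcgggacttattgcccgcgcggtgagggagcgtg
The matches begin 175, 148, 104 and 183 bases before the start. Of the 42 members with a RefSeq promoter in the reference, 12 (28.6%) held the letters on either strand, beside 11.0% of all 27305 promoters and 11.5% of those of 15843 protein-coding genes. The 12 included 3 of 4 activators (PSME1, PSME2 and PSME4) and 4 of 7 assembly factors (PSMG1, PSMG2, PSMD5 and PSMD9), but 0 of 6 alpha ring genes, and none was found in this window of NFE2L1. PSME4 and PSMD5, which rose with indisulam, and PSME2, PSMB3 and PSMG1, which fell, all hold a match.

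Proteasome transcripts took a smaller share of the transcriptome with indisulam, in nearly every role. Of the 48 members 37 were lower and 2 higher with indisulam in limma's test at an adjusted p below 0.05, and 9 were not called. Lower calls thus took 77.1% of the members beside 21.5% of all 13421 genes tested, and higher calls 4.17% beside 8.47%. The median log2 difference of the members was -0.71, against -0.05 for all genes tested. The 48 genes summed to 6252, 6350 and 6454 TPM in DMSO and to 4185, 4102 and 4061 TPM with indisulam, 35.2% less, with no overlap between groups. A TPM value is a share of all transcripts in a library, and in bulk RNA fewer cells of a kind cannot be told apart from less RNA per cell. Without indisulam replicate 3, 39 members were lower and 6 higher, while the median of all genes moved to 0.10. Of all calls 28.3% were higher, and 52.1% and 46.7% under quantile normalization and median scaling; 27 of the 37 lower members and both higher ones were called under all 3 scalings.

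**Figure D1:**
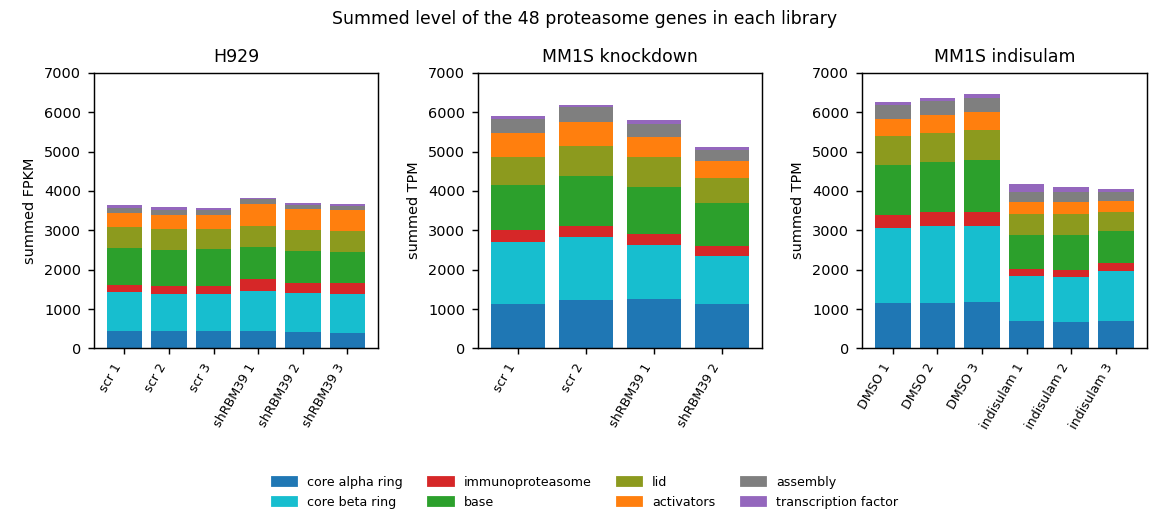
Summed level of the 48 genes in each library, stacked by role, in FPKM for H929 and TPM for MM1S; each bar is 1 library. The indisulam bars reach 4061 to 4185 TPM and the DMSO bars 6252 to 6454 TPM, while the H929 bars differ by less than 10% and are not comparable in height with the other panels.

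The genes of the 20S core fell together. All 7 alpha ring genes, which form the gated outer rings, were lower with indisulam, by log2 differences between -0.51 for PSMA1 and -0.83 for PSMA2 and PSMA5. PSMA5 was 32.9, 36.3 and 36.3 TPM in DMSO and 21.3, 18.9 and 18.0 TPM with indisulam. PSMA4 went from 274, 277 and 272 TPM to 167, 166 and 158 TPM. In each of the 7 genes every indisulam library lay below every DMSO library, as in 40 of all 48 members and 4344 of all 13421 genes tested. The alpha ring calls were all kept when any 1 library was left out, and 6 of the 7 under quantile normalization, where PSMA1 lost its call.

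All 7 constitutive beta ring genes were lower as well, with a median log2 difference of -0.80. PSMB7, the trypsin-like catalytic subunit, was 195, 214 and 201 TPM in DMSO and 84.2, 87.0 and 101 TPM with indisulam, or -1.16 on the log2 scale (SE 0.0979, limma adjusted p = 3.84e-04). PSMB6, the caspase-like subunit, was 259.9, 274 and 269 TPM and then 139, 144 and 180.4 TPM, a log2 difference of -0.80 (limma adjusted p = 0.00235). PSMB5, the chymotrypsin-like subunit and the main target of bortezomib, was 33.7, 33.5 and 36.9 TPM and then 23.9, 25.7 and 23.2 TPM, a smaller difference of -0.50 (limma adjusted p = 0.0155) that lost its call when DMSO replicate 1, 2 or 3 was left out, under quantile normalization and with the replicate block. The structural subunit PSMB2 was 129, 129.9 and 132 TPM in DMSO and 67.6, 69.5 and 55.6 TPM with indisulam (-1.01, SE 0.107, limma adjusted p = 7.87e-04). The groups of these 4 genes did not overlap.

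The 3 immunoproteasome genes fell by similar amounts. PSMB8, which replaces PSMB5, was 82.3, 83.3 and 84.1 TPM in DMSO and 44.6, 43.4 and 46.5 TPM with indisulam (-0.88, limma adjusted p = 6.17e-04). PSMB9, which replaces PSMB6, was 65.4, 68.2 and 66.7 TPM and then 34.4, 37.8 and 36.7 TPM (-0.86, limma adjusted p = 8.43e-04). PSMB10, which replaces PSMB7, was 184, 199 and 196 TPM and then 102, 104 and 119 TPM (-0.83, limma adjusted p = 8.96e-04). All 3 calls were kept under each scaling and with any 1 library left out.

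**Figure D2:**
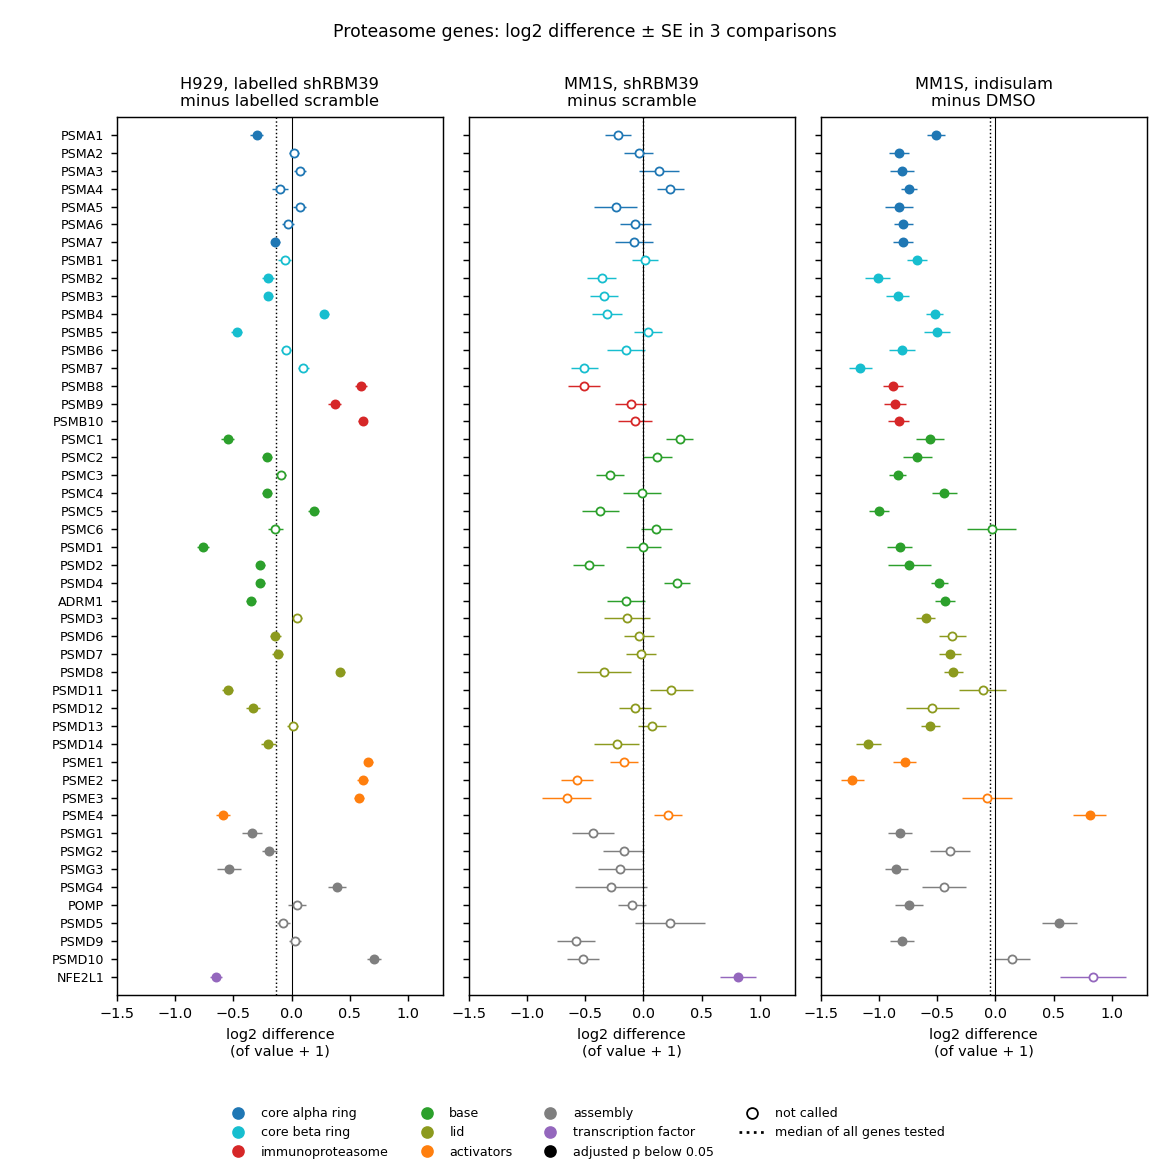
Log2 difference ± SE, on the log2(value + 1) scale, of each of the 48 genes in the 3 expression comparisons, coloured by role; filled points passed limma's adjusted p threshold of 0.05 and the dotted line is the median of all genes tested. With indisulam 44 of 48 points lie below 0, and PSME4, PSMD5, PSMD10 and NFE2L1 lie above.

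In the regulatory particle 9 of 10 base genes were lower. The ATPase PSMC5 was 166, 167 and 173 TPM in DMSO and 82.7, 89.8 and 80.0 TPM with indisulam (-1.0), and the scaffold PSMD1 was 43.6, 40.2 and 45.0 TPM and then 23.4, 24.9 and 23.6 TPM (-0.82). The ubiquitin receptors PSMD4 and ADRM1 were lower by less, at -0.48 and -0.43, and both calls were lost under quantile normalization and median scaling. The ATPase PSMC6 was the exception, at 35.2, 34.5 and 36.4 TPM against 42.6, 40.2 and 24.3 TPM. Its indisulam libraries stood on both sides of the DMSO range, and without indisulam replicate 3 it was higher (0.22, limma adjusted p = 0.0195). PSMD2, another scaffold, was 195, 192 and 208 TPM in DMSO and 143, 133 and 86.0 TPM with indisulam, lowest in replicate 3; its difference was -0.74 with that library and -0.52 without it, called both times. Leaving out at least 1 DMSO library ended the calls of PSMC1, PSMC2, PSMC4, PSMD2 and ADRM1, and quantile normalization those of PSMC4 and PSMD2.

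The lid was divided, with 5 of 8 genes lower and a median of -0.47. PSMD14, the deubiquitinase that strips the ubiquitin chain, was 79.5, 77.2 and 84.1 TPM in DMSO and 37.0, 40.8 and 33.7 TPM with indisulam (-1.09, SE 0.107, limma adjusted p = 5.95e-04). PSMD11, a scaffold of the lid, was 43.4, 39.2 and 44.1 TPM and then 45.6, 46.8 and 28.1 TPM, with overlapping groups and no call. PSMD6 (-0.37, limma adjusted p = 0.0529) and PSMD12 (-0.54, limma adjusted p = 0.121) were not called either, although their groups did not overlap. Without indisulam replicate 3 both were called lower (PSMD6 -0.25, limma adjusted p = 0.00587; PSMD12 -0.28, limma adjusted p = 0.0190), and under median scaling too, PSMD12 also under quantile normalization. PSMD3, PSMD7, PSMD8 and PSMD13 were lower by 0.36 to 0.60 on the log2 scale; the calls of PSMD7 and PSMD8 were lost without 1 or more of the libraries, and those of PSMD7, PSMD8 and PSMD13 under both quantile normalization and median scaling.

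The activators split by type. PSME2, which with PSME1 forms the interferon-induced 11S ring, showed the lowest difference of all 48: 203, 216 and 204 TPM in DMSO became 80.6, 85.5 and 98.7 TPM (-1.23, SE 0.0981, limma adjusted p = 3.02e-04). PSME1 fell from 146, 155 and 146 TPM to 82.7, 80.4 and 96.9 TPM (-0.78, limma adjusted p = 0.00156). PSME4, the nuclear activator PA200, rose from 30.1, 26.9 and 26.6 TPM to 56.6, 51.2 and 41.4 TPM (0.81, SE 0.142, limma adjusted p = 0.00597), with a call in every fit that left out 1 library. PSME3, the nuclear PA28 gamma, was 68.9, 64.4 and 68.5 TPM and then 79.5, 74.7 and 44.0 TPM, so that only the third library was below DMSO. Its difference was -0.07 with no call, and 0.19 without indisulam replicate 3, called higher (limma adjusted p = 0.0290).

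Among the assembly factors 4 of 8 were lower and 1 higher. POMP, which matures the beta ring, was 50.3, 51.8 and 52.7 TPM in DMSO and 30.6, 27.0 and 34.3 TPM with indisulam (-0.74, limma adjusted p = 0.00393). The alpha ring chaperones PSMG1 (-0.82) and PSMG3 (-0.85) and the base chaperone PSMD9 (-0.80) fell alike, while PSMG2 (-0.39) and PSMG4 (-0.44) were not called. PSMD5, a base chaperone, rose from 12.2, 10.3 and 9.89 TPM to 17.2, 16.7 and 15.0 TPM (0.55, limma adjusted p = 0.0302), a call lost when any library other than indisulam replicate 3 was left out. The base chaperone PSMD10 was 40.2, 41.3 and 41.4 TPM against 53.7, 48.1 and 36.1 TPM (0.14), with no call. It was called higher without indisulam replicate 3 (0.31, limma adjusted p = 0.00703) and under quantile normalization.

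NFE2L1 moved apart from the subunits. It was 68.8, 72.7 and 82.7 TPM in DMSO and 205, 137 and 85.3 TPM with indisulam, so that every treated library was above every control but replicate 3 only just. The log2 difference of 0.84 (SE 0.286) was not called (limma adjusted p = 0.0653); without indisulam replicate 3 it was 1.16 (SE 0.18, limma adjusted p = 0.00248), and it passed under quantile normalization and median scaling too.

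**Figure D3:**
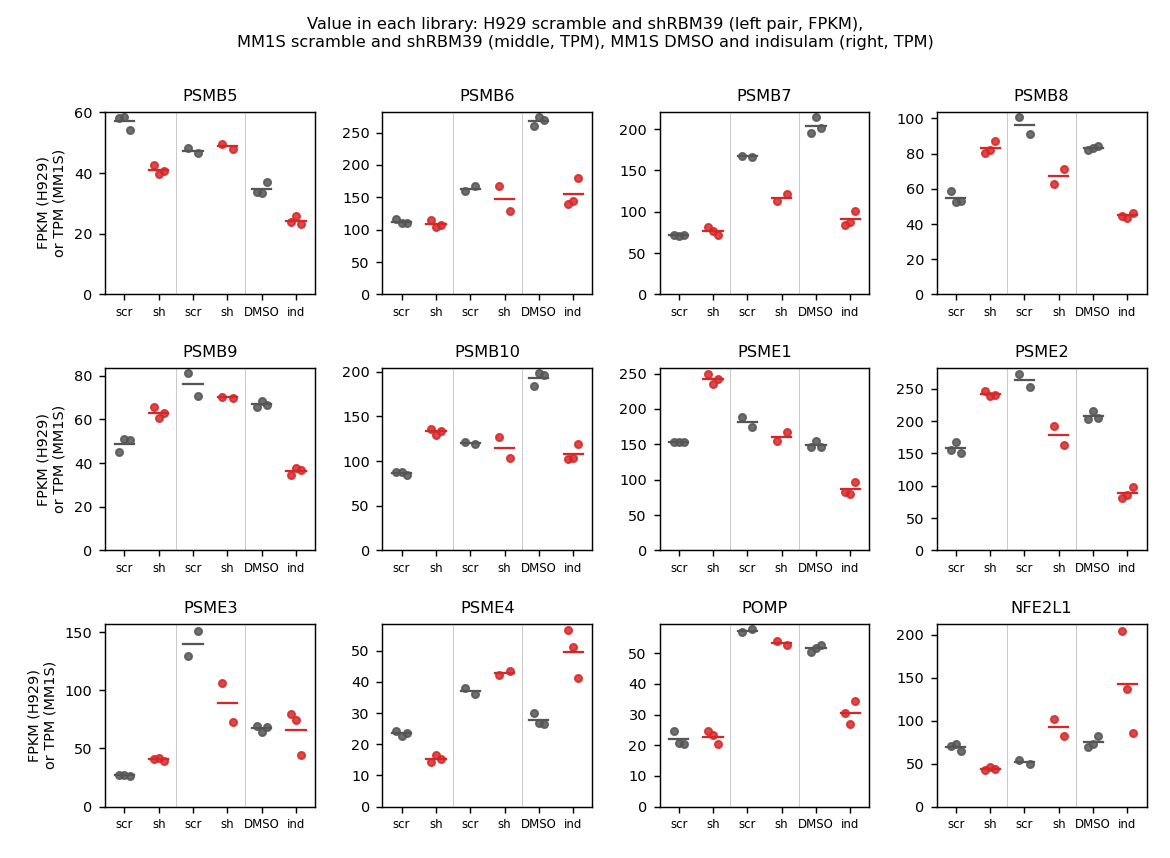
Value of 12 members in each library (points) with the group mean (bars); grey is scramble or DMSO and red is shRBM39 or indisulam, in FPKM for the left pair (H929) and TPM for the middle and right pairs (MM1S). PSME2 drops from 203 to 216 TPM in DMSO to 80.6 to 98.7 TPM with indisulam, PSME4 rises there, and PSMB8 and PSME1 are higher in H929 libraries labelled shRBM39.

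Genes around NFE2L1 and the proteasome moved in both directions with indisulam. Of 13 NFE2L1 processing factors and partners, 3 were higher and 2 lower: SEL1L, of the endoplasmic reticulum degradation complex, rose from 39.9, 37.2 and 40.9 TPM to 152, 113 and 47.2 TPM, the repressor BACH1 from 4.40, 4.41 and 4.54 TPM to 17.7, 14.4 and 6.36 TPM, and MAFF from 7.71, 7.50 and 7.41 TPM to 15.1, 12.5 and 10.7 TPM. The extraction ATPase VCP fell (-0.86, limma adjusted p = 9.53e-04), as did its cofactor UFD1 (-0.57). In replicate 3 SEL1L and BACH1 stood only slightly above DMSO, and the calls of SEL1L, BACH1, MAFF, AKIRIN2 and ZFAND5 were lost whenever a library other than indisulam replicate 3 was left out. Of 12 tested proteasome-bound or other proteasome factors, 5 were lower, among them the lid peptide SEM1 (-1.11), the inhibitor PSMF1 (-0.88) and the testis-type alpha subunit PSMA8 (-1.68), and 2 were higher, AKIRIN2 (1.20), which imports proteasomes into the nucleus, and ZFAND5 (0.94), a proteasome-stimulating protein. Of 11 tested shuttle and ubiquitin genes, 3 were lower and 0 higher by limma (4 of 11 had an unadjusted p below 0.05), among them the polyubiquitin gene UBB (-0.69) and the activating enzyme UBA1 (-0.62). Of 8 tested genes of the response to proteasome inhibitors, 2 were higher, SQSTM1 (0.48) and DDIT3 (1.03), and 0 lower. Of 6 immunoproteasome regulators and neighbours, the peptide transporter genes TAP1 (-0.42) and TAP2 (-0.93) were lower and 0 higher (3 of 6 had an unadjusted p below 0.05). The calls of SQSTM1, TAP1, TAP2 and UBA1 were lost without at least 1 DMSO library, those of UFD1 and TAP1 under quantile normalization and median scaling, and that of UBB under median scaling. These counts stand beside 8.47% of all genes called higher and 21.5% lower. Without indisulam replicate 3, the NFE2L1 list had 6 higher and 2 lower, with DDI2 (1.02), MAFG (0.85) and SYVN1 (0.39) added, and the proteasome factors 5 and 5. The shuttle and ubiquitin genes then had 3 higher and 4 lower, the inhibitor response 3 and 1, with HSPH1 (0.57) higher and HMOX1 (-0.39) lower, and the immunoproteasome regulators 1 and 3.

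The MM1S knockdown moved the members far less. Of the 48, NFE2L1 was called higher and 0 were called lower by limma, that is 2.08% beside 4.03% of all 14122 genes tested for higher calls, and 0% beside 6.38% for lower calls. At an unadjusted p below 0.05 there were 12 members in either direction, and limma without trend and robust called 0. The member median was -0.13 and that of all genes 0.00. The summed level was 5892 and 6180 TPM in the scramble libraries and 5808 and 5114 TPM in the shRBM39 libraries, 9.52% less on average, with most of the gap in shRBM39 replicate 2. Both shRBM39 libraries lay below both scramble libraries in 17 members (35.4% beside 31.9% of all genes) and above them in 7 (14.6% beside 30.5%).

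NFE2L1 was 54.0 and 49.9 TPM in the scramble libraries and 102 and 82.5 TPM in the shRBM39 libraries, or 0.81 on the log2 scale (SE 0.154, limma adjusted p = 0.0384). The groups did not overlap, but the call was lost when any 1 of the 4 libraries was left out (adjusted p 0.073 to 0.292), and also with no filter or with limma without trend and robust. The difference stayed between 0.66 and 0.97 in those fits. The nearest misses on the lower side were PSMB7, at 168 and 166 TPM against 113 and 121 TPM (-0.51, limma adjusted p = 0.0526), and PSME2, at 273 and 253 TPM against 193 and 163 TPM (-0.57, limma adjusted p = 0.0587). PSME3 had the lowest difference of the members, at 129 and 151 TPM against 106 and 72.6 TPM (-0.66, limma adjusted p = 0.104), and was not called.

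The other catalytic and immunoproteasome genes were not called. PSMB5 was 48.1 and 46.6 TPM against 49.7 and 47.8 TPM, with overlapping groups. PSMB6 was 159 and 167 TPM against 167 and 129 TPM, PSMB8 101 and 91.0 TPM against 62.9 and 71.5 TPM (-0.51, limma adjusted p = 0.0717), PSMB9 81.3 and 70.7 TPM against 70.4 and 69.7 TPM, and PSMB10 121 and 119 TPM against 127 and 103 TPM. Of these only PSMB8 and PSMB9 had both shRBM39 libraries below both scramble libraries, PSMB9 by a small margin. POMP was 56.9 and 57.8 TPM against 53.9 and 52.7 TPM. None of the 32 core, base and lid subunits was called by limma, with 6 at an unadjusted p below 0.05.

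Around them MAFK, a small MAF partner of NFE2L1, rose from 7.54 and 8.55 TPM to 23.1 and 18.4 TPM (1.26, limma adjusted p = 0.0218), the only call among the 13 NFE2L1 partners. SQSTM1, the autophagy receptor p62, rose from 147 and 123 TPM to 258 and 219 TPM (0.82, limma adjusted p = 0.0371), the only call among 9 genes of the inhibitor response. UBA6, a second ubiquitin-activating enzyme, fell from 28.1 and 34.6 TPM to 17.0 and 18.7 TPM (-0.77, limma adjusted p = 0.0460). All 3 of these calls were lost when any 1 of the 4 libraries was left out, and that of UBA6 under either other scaling. None of 12 tested proteasome factors (1 at an unadjusted p below 0.05) or 6 immunoproteasome regulators (3) was called by limma.

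In H929 the members were called in both directions, also within most roles. Of the 48, 11 rose and 22 fell from the scramble label to the shRBM39 label, 22.9% beside 24.1% and 45.8% beside 48.1% of all 10360 genes tested, so that the counts were close to those of the transcriptome at large. The median log2 difference was -0.09 for the members and -0.13 for all genes. The direction of many small differences depended on the scaling: under median scaling 21 members were higher and 12 lower, under quantile normalization 15 and 16, and with FPKM rescaled to an equal total 10 and 32. The share of higher calls among all calls moved from 33.4% to 54.3%, 49.6% and 21.3%. Across all 4 scalings 9 members were higher (PSMB8, PSMB9, PSMB10, PSMD8, PSME1, PSME2, PSME3, PSMG4 and PSMD10) and 12 lower (PSMA1, PSMB5, PSMC1, PSMD1, PSMD2, PSMD4, ADRM1, PSMD11, PSMD12, PSME4, PSMG3 and NFE2L1). The summed level was 3639, 3583 and 3570 FPKM against 3830, 3692 and 3661 FPKM, which is 0.972, 0.956 and 0.953% against 0.895, 0.902 and 0.882% of each library's FPKM total.

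The immunoproteasome and the 11S activators rose together in the libraries labelled shRBM39. PSMB8 was 58.9, 52.3 and 52.9 FPKM in those labelled scramble and 80.6, 81.9 and 87.0 FPKM in those labelled shRBM39 (0.60, limma adjusted p = 3.06e-07). PSMB9 was 44.9, 50.8 and 50.4 FPKM against 65.8, 60.5 and 62.7 FPKM (0.37, limma adjusted p = 4.10e-05), and PSMB10 88.3, 88.4 and 84.4 FPKM against 136, 129.8 and 134 FPKM (0.61, limma adjusted p = 2.39e-08). PSME1 stood at 153 FPKM in each library labelled scramble and at 249.9, 235 and 242 FPKM in those labelled shRBM39 (0.66, SE 0.0385, limma adjusted p = 8.00e-09). PSME2 was 156, 167 and 151 FPKM against 247, 239 and 240.2 FPKM (0.61, SE 0.0436, limma adjusted p = 5.06e-08), and PSME3 rose by 0.58. In all 6 genes the groups did not overlap, and the calls held in all 4 scalings. Summed markers of monocytes went the other way, 25.1 to 26.9 FPKM against 13.4 to 14.7 FPKM. Nearly all of this came from CD68, with CD14, LYZ and CSF1R under 0.4 FPKM. The summed plasma cell markers were higher under the shRBM39 label, but the genes were mixed. SDC1 (2.00), MZB1 (1.12), JCHAIN, IRF4, TNFRSF17, XBP1 and POU2AF1 were called higher on the log2 scale. PRDM1 (-0.38), CD38 (-0.32) and SLAMF7 (-0.23) were called lower. The part of either marker set in the result was not tested. Of the immunoproteasome's known regulators and neighbours, the peptide loading chaperone TAPBP (0.60) rose, while IRF1 (-0.44), NLRC5 (-0.39) and TAP2 (-0.33) fell and TAP1 (-0.06) was not called.

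The largest rise was that of PSMD10 (gankyrin), at 12.2, 12.7 and 11.7 FPKM against 21.9, 20.4 and 19.5 FPKM (0.71, SE 0.0584, limma adjusted p = 1.82e-07). In the base 7 of 10 genes were called lower, beside 48.1% of all genes tested, and PSMC5 alone higher (0.19, lost with FPKM rescaled to an equal total). The base median was -0.24, against -0.13 for all genes. The lower calls of PSMC2 and PSMC4 were lost under median scaling, and that of PSMC2 also under quantile normalization. PSMD1 had the lowest difference, at 39.1, 37.1 and 36.2 FPKM against 22.3, 22.3 and 20.5 FPKM (-0.76, SE 0.0518, limma adjusted p = 3.17e-08). PSMC1 was 13.0, 12.7 and 13.0 FPKM against 8.53, 8.59 and 8.40 FPKM (-0.55). In the lid PSMD11, at 37.7, 38.1 and 36.8 FPKM against 25.0, 25.1 and 25.6 FPKM (-0.55, SE 0.0444, limma adjusted p = 1.44e-07), contrasted with PSMD8, at 106, 105 and 104 FPKM against 144, 139 and 141 FPKM (0.42, limma adjusted p = 3.33e-07).

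In the core PSMB5 was lower, at 58.2, 58.5 and 54.3 FPKM against 42.6, 39.6 and 40.8 FPKM (-0.47, limma adjusted p = 1.33e-06), whereas its catalytic neighbours were not called: PSMB6 was 116, 110.3 and 111 FPKM against 115, 104 and 108 FPKM, and PSMB7 72.1, 70.2 and 71.6 FPKM against 81.5, 76.6 and 71.9 FPKM. PSMB4, the most abundant member, rose from 422, 416 and 415 FPKM to 522, 501 and 497 FPKM (0.28, lost under quantile normalization). Only 2 of 7 alpha ring genes were called, PSMA1 (-0.30) and PSMA7 (-0.14), both lower, PSMA7 not under median scaling. POMP was 24.7, 20.8 and 20.5 FPKM against 24.5, 23.3 and 20.5 FPKM, with overlapping groups and no call. PSMB7 and POMP were called higher under both quantile normalization and median scaling, and stood at -0.05 and -0.10 with FPKM rescaled. PSME4 fell from 24.1, 22.6 and 23.7 FPKM to 14.2, 16.4 and 15.3 FPKM (-0.59, SE 0.0589, limma adjusted p = 1.18e-06), and NFE2L1 from 71.1, 72.8 and 64.5 FPKM to 42.5, 45.5 and 44.0 FPKM (-0.65, SE 0.0515, limma adjusted p = 1.36e-07).

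Of the 13 NFE2L1 partners 3 were higher in the H929 libraries labelled shRBM39, namely the deglycosylase NGLY1 (0.75), SEL1L (0.70) and VCP (0.28), and 5 were lower, among them MAFG (-0.72), MAFK (-0.60) and UFD1 (-0.43). Of the inhibitor response genes 4 of 8 tested were lower, ATF3 (-1.80), DDIT3 (-1.14), SQSTM1 (-0.84) and BAG3 (-0.46), and 3 higher, HMOX1 (0.75), HSPH1 (0.35) and HSPA1B (0.21). Of 11 tested proteasome factors 4 were lower and 0 higher by limma (5 of 11 had an unadjusted p below 0.05), and of 11 shuttle and ubiquitin genes 4 were lower and 3 higher, with RPS27A, a ubiquitin and ribosomal protein fusion gene, at 0.57. HSPA1B lost its call with FPKM rescaled to an equal total. In H929 24.1% of all genes were called higher and 48.1% lower, so these counts say nothing particular to the lists.

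The balance of immunoproteasome to constitutive catalytic subunits was followed as the log2 ratio within each library, in 9 comparisons. In H929 PSMB8 over PSMB5 was 0.02, -0.16 and -0.04 in the libraries labelled scramble and 0.91, 1.03 and 1.08 in those labelled shRBM39, a difference of 1.06. PSMB9 over PSMB6 differed by 0.41 and PSMB10 over PSMB7 by 0.51, also without overlap. With indisulam PSMB8 over PSMB5 was 1.27, 1.29 and 1.17 in DMSO and 0.87, 0.73 and 0.98 in treated libraries (-0.38), while PSMB10 over PSMB7 went from -0.08, -0.11 and -0.04 to 0.28, 0.25 and 0.24 (0.33). PSMB9 over PSMB6 overlapped between groups (-0.06, two-sided exact permutation p = 0.9), so the 3 pairs did not shift alike. The 5 non-overlapping ratios of H929 and indisulam each had a two-sided exact permutation p = 0.1, the smallest that 3 against 3 libraries allow (adjusted over 9, 0.180). In the MM1S knockdown the differences were -0.55, 0.03 and 0.44 in that order of pairs, and 2 against 2 libraries cannot go below an exact p of 0.33.

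**Figure D4:**
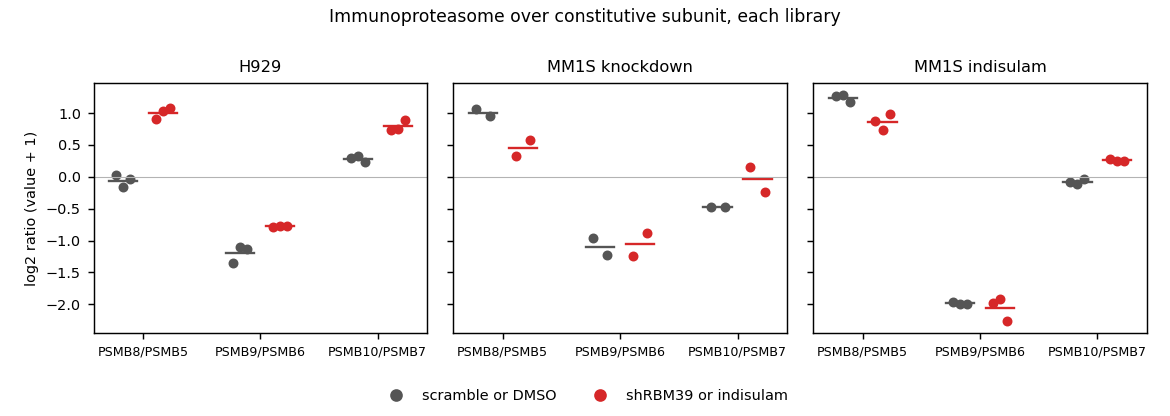
Log2 ratio of each immunoproteasome subunit over the constitutive subunit it replaces, in each library (points) with group means (bars); grey is scramble or DMSO and red is shRBM39 or indisulam. In H929 all 3 ratios are higher in libraries labelled shRBM39, while with indisulam PSMB8 over PSMB5 is lower and PSMB10 over PSMB7 higher.

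The RIP libraries, 1 with each antibody, have no replicate check and carry no test; a ratio is log2 of (FPKM + 1) with the RBM39 antibody over the same with IgG. Of the 48 members 11 had a ratio above 1 and 13 below -1, that is 22.9% beside 22.6% and 27.1% beside 23.9% of the 10946 genes that reached 1 FPKM in at least 1 of the libraries. The member median was -0.26 and that of all genes 0.02. RBM39's own transcript was at 62.1 FPKM with its antibody and 127 FPKM with IgG.

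The highest member was PSMD14, the lid deubiquitinase, at 230.0 FPKM with the RBM39 antibody and 33.7 FPKM with IgG (ratio 2.74). PSMC6 followed at 29.7 against 5.00 FPKM (2.35), PSMG3 at 58.1 against 11.6 FPKM (2.22) and PSMB7 at 80.3 against 18.3 FPKM (2.08). The scaffold PSMD2 had the most RNA of all members with the antibody, 1157 FPKM against 274 FPKM (2.07), and NFE2L1 was at 283 against 102 FPKM (1.46). The lowest were POMP, at 5.68 against 41.0 FPKM (-2.65), PSMB3, at 14.2 against 68.7 FPKM (-2.20), PSMA1, at 16.8 against 79.8 FPKM (-2.19), and PSMG2, at 3.65 against 17.0 FPKM (-1.95). Among the roles with several genes, the base had the highest median, 0.57, with 4 of 10 genes above 1. The activators had the lowest, -1.15, with all 4 below 0.

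**Figure D5:**
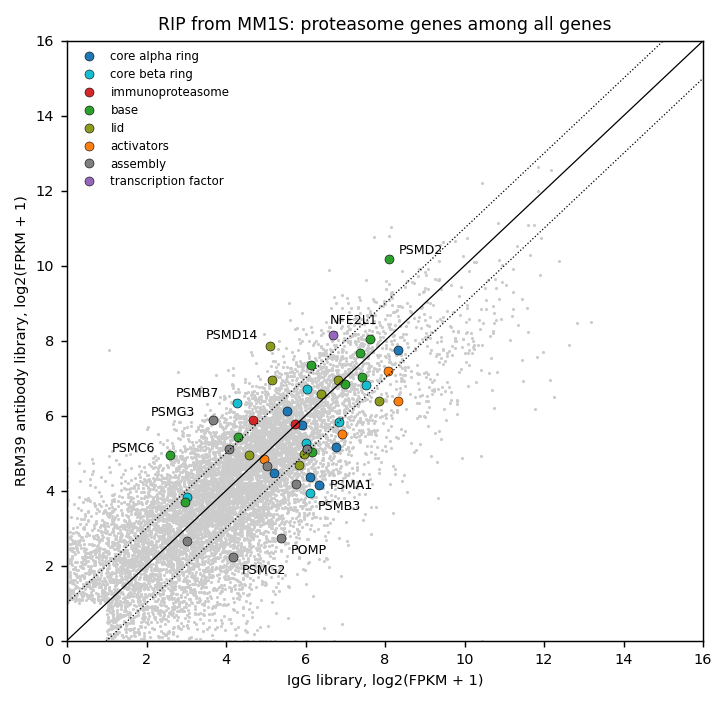
Each gene's level in the RIP libraries on log2(FPKM + 1) scales, IgG on the horizontal and the RBM39 antibody on the vertical axis; coloured points are the 48 members by role, grey points all other genes, the solid line is equality and the dotted lines a log2 ratio of 1 and -1. PSMD14 and PSMD2 lie above the upper dotted line and POMP and PSMB3 below the lower.

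Set beside indisulam, 8 of the 11 members with a RIP ratio above 1 were lower with the drug (median difference -0.82), as were 19 of the 24 between -1 and 1 (-0.64) and 10 of the 13 below -1 (-0.67). PSMD14 and PSMB7 stood near the extremes in both, with indisulam differences of -1.09 and -1.16, but PSME2, lowest with indisulam, had a RIP ratio of -1.41. PSMC6, second highest in RIP, was not called with indisulam.

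Across the 3 expression comparisons, which do not share control libraries, 8 members were higher in the H929 libraries labelled shRBM39 and lower with indisulam (PSMB4, PSMB8, PSMB9, PSMB10, PSMC5, PSMD8, PSME1 and PSME2), and PSME4 showed the reverse. Another 16 were lower in both. These are 8 of the 11 members higher in H929 and 16 of the 22 lower there, beside 37 of all 48 lower with indisulam. Neither group stands out from the members as a whole, and the share of joint calls over all genes was not computed. With the H929 labels exchanged, the 8 would share their direction with indisulam and the 16 would be opposite. NFE2L1 was -0.65 in H929, 0.81 in the MM1S knockdown and 0.84 with indisulam. PSMC6 was called in none of the 3.

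Levels within the complex were unequal in every group. PSMB4 had the highest mean of all members in each of the 6 groups, from 418 FPKM in H929 libraries labelled scramble to 819 TPM in DMSO. PSMB5, although part of the same ring, was the lowest of the 14 core genes in the MM1S controls, at 47.4 ± 1.12 TPM (SD, n = 2) with scramble and 34.7 ± 1.89 TPM (SD, n = 3) in DMSO, and PSMD12 was the lowest of the lid genes in all 6 groups. PSMG4 was the lowest of all 48 in H929 and in the MM1S knockdown, at 1.43 FPKM and 16.4 TPM in the controls. These levels are per length, so genes can be set side by side, but tables were normalized separately.

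Some members share sequence with other rows. The MM1S tables hold 32 rows of pseudogenes named after members, of which 2 reached 1 TPM in any library. PSMC1P5 reached 56.5 TPM in 1 knockdown-experiment library and was listed at 0 in others, so PSMC1 reads may have been split and its values (93.8 and 92.3 TPM against 111 and 119 TPM in the knockdown) are uncertain. It also reached 33.3 TPM in the indisulam experiment, so the lower call of PSMC1 there (-0.56) carries the same doubt. The antisense genes PSMB8-AS1 and PSMA3-AS1, at up to 23.2 and 22.8 TPM, overlap PSMB8 and PSMA3; whether the counting used strand is not given, and reads of a pair cannot be told apart without it. PSMA6 overlaps the readthrough gene PRORP-PSMA6. Further members overlap other genes, among them PSMD10 (ATG4A), PSMC5 (FTSJ3), PSMC1 (NRDE2), PSMC2 (PMPCB) and PSMG2 (SPIRE1 and CEP76). The part of these overlaps in their values was not tested.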

How the data were processed

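RNA sequencing of 16 H929 and MM1S libraries and RIP sequencing of 2 MM1S libraries were used as deposited. Per the labels, TRIzol RNA went into a SMARTER mRNA library kit. Which aligner, counter and annotation were used is not given in the sources used here; per the submitters' processing notes the builds are GRCm38 and mm10, mouse assemblies, although cells and symbols are human, so file coordinates were not used. The H929 and RIP tables hold FPKM made by the authors (column totals 374511 to 428099 and 481945 to 653239). The deposited MM1S values are TPM, although the files call them FPKM, since every column sums to between 999999 and 1000001. Relative depth in H929, from the steps of low values, was 0.975 to 1.15 of scramble replicate 1; it is unknown elsewhere, so no counting interval is given.

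Symbols listed more than once kept the row with the highest mean, as for PSMA2 in the RIP table; 834 and 473 unnamed MM1S rows (at most 0.459% and 0.237% of TPM) were left out. 0 value columns were unmatched. Each contrast was a two-sided limma fit (version 3.58.1 in R 4.3.3, with trend and robust) of log2(value + 1). Genes had to reach 1 in at least the number of libraries of the smaller group. P-values were Benjamini-Hochberg adjusted over all genes tested, and genes were called below 0.05. Fold changes on this scale understate changes of low genes. Subunit ratios used exact permutation tests. The pipeline was tested on simulated data. Promoters are RefSeq sequences of GRCh38.p14. Figures used Matplotlib 3.10.9 in Python 3.11.15.

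The members, gene lists and tests were chosen with earlier results of these data known. Values in every library are given for the catalytic and immunoproteasome subunits, NFE2L1, POMP and, per direction, the 4 called members with the largest difference (with none called, the largest); for RIP the 4 highest and 4 lowest; for other lists up to 3 called genes per direction, a few of which are not reported here. Other members are named as examples, chosen after their values were seen. Alternatives were quantile normalization, median scaling, a filter at 5 or none, a pseudocount of 0.1, leaving out each library, a replicate block, and limma with neither trend nor robust; a crossed block and H929 FPKM rescaled to equal totals were added after seeing the data.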

Additional observations from a re-analysis of the deposited data

Results flagged for a closer look

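The libraries labelled shRBM39 stood on opposite sides of those labelled scramble in the 2 lines for RBM39 and 13 members. Every library of H929 went one way and every library of MM1S the other. Groups without overlap were common: in H929 2598 of all 10360 genes were above and 5138 below. In the MM1S knockdown they were 4312 and 4503 of 14122. The share of all genes on opposite sides in the 2 lines was not computed, so the 13 are not read as particular to the members. The MM1S log2 difference minus that of H929 was -4.50 for RBM39, whose H929 values go against the labels, and 1.46 for NFE2L1. It was -1.24 for PSME3, -1.23 for PSMD10, -1.17 for PSME2, -1.11 for PSMB8 and -0.82 for PSME1. Smaller gaps were 0.86 for PSMC1, 0.79 for PSME4, -0.59 for PSMB4, 0.56 for PSMD4, -0.55 for PSMC5, -0.48 for PSMB9 and 0.33 for PSMC2. These 13 members were picked for going opposite ways, so exchanging the H929 labels would by construction turn them the same way. As labelled, NFE2L1 was -0.65 in H929 and 0.81 in MM1S, PSME2 0.61 and -0.57, and PSMB8 0.60 and -0.51. For PSMA1, PSMB2, PSMB3, PSMC3, PSMD2 and PSMG1 every shRBM39 library lay below every scramble library in both lines, as labelled. An exchange would make these opposite. The difference between lines was not tested, since the tables were normalized separately.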

How the results depend on the processing

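The 37 members lower with indisulam were 29 to 39 under the alternatives run, and the 2 higher were 1 with no filter, 4 under quantile normalization and 1 to 6 when 1 library was left out. Their median was -0.44 under quantile normalization. In H929 median scaling gave 21 higher and 12 lower, and the median of -0.09 became 0.07 there, -0.03 under quantile normalization and -0.25 with FPKM rescaled to equal totals. The 1 higher call of the MM1S knockdown was 0 with no filter, 0 with limma without trend and robust, 0 whichever library was left out and 2 under quantile normalization; its lower calls were 2 with a filter at 5 and 1 under median scaling. Leaving out a library there leaves a single one in a group, assumed to vary like the other.

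No pairing of libraries by the numbers in the labels was seen, although 2 or 3 libraries a group are too few to settle it. Same-number correlations of deviations from the group mean were 0.129, -0.000 and 0.025 in H929 and 0.138, -0.146 and -0.024 with indisulam. In the MM1S knockdown both were -0.139, equal by construction with 2 libraries a group. Only the first pairs of H929 and indisulam correlated best with their own number. With a replicate block H929 kept 11 and 22 calls, the MM1S knockdown had 0 higher and 0 lower, and indisulam 1 higher and 33 lower. A crossed replicate block in the MM1S knockdown gave 0.

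Differences that changed sign were small: in H929 PSMB6 0.12 (limma adjusted p = 0.0446) and SEM1 0.00 under median scaling, POMP between -0.00 and 0.13 when 1 library was left out, and POMP -0.10 and PSMB7 -0.05 with FPKM rescaled; in the MM1S knockdown PSMB10 0.02 under quantile normalization, and, when 1 library was left out, PSMB10 between -0.22 and 0.08 and PSMB6 between -0.33 and 0.04; with indisulam RBM39 between -0.06 and 0.24. Without indisulam replicate 3, PSMC6 (0.22), PSME3 (0.19) and PSMD11 (0.13) changed sign too, PSMC6 and PSME3 with a higher call. Left-out libraries put PSMB9 over PSMB6 between -0.14 and 0.21 in the MM1S knockdown, and at 0.04 without indisulam replicate 3. The RIP median was -0.26 with a pseudocount of 0.1 and -0.28 relative to all genes. Except where a library was dropped, the cause was not tested. The single-gene differences counted under the alternatives did not include PSMC6, PSME3 or PSMD11 with indisulam. Of those counted, 1007 kept their side of the threshold, 104 lost it, 12 gained it and 10 changed sign.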
